A study of Mus musculus with 9 samples.

Results

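The cytochrome P450 genes of the Cyp2 and Cyp3 families were examined in mouse liver, leaving out Cyp2e1. Members were the protein-coding genes of the deposited table whose symbol starts with Cyp2 or Cyp3, a subfamily letter and a number, which gave 43 of the 16755 genes. Scd2f/f mice carry loxP sites around the third exon of Scd2, a stearoyl-CoA desaturase gene, and Scd2f/f;CC mice carry in addition a Col1a1-Cre transgene, which is meant to delete Scd2 in cells that use the Col1a1 promoter, which in liver are activated hepatic stellate cells (HSC) and portal fibroblasts. RNA was sequenced from 3 groups with 3 samples each of mice labelled C57BL/6, and the study's methods describe males on a C57BL/6J background. Scd2f/f TAL and Scd2f/f;CC TAL are tumor-adjacent liver of mice that received the carcinogen diethylnitrosamine (DEN, 10 mg/kg) when 2 weeks old and a Western diet with alcohol (WAD) from 6 weeks on for 4 months, as the labels give it, whereas the study's methods give a longer feeding. Scd2f/f control is liver labelled as untreated, with the floxed allele and no Cre. An untreated Scd2f/f;CC group was not analysed here, so the genotype and DEN + WAD cannot be told apart where Scd2f/f;CC TAL is set against control. The sources used here give a range of ages over all mice of the study and no age at collection for a group.

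Each value below is the authors' mean of a group, in upper-quartile-normalized read counts, and 3 values in a row are always in the order control, Scd2f/f TAL, Scd2f/f;CC TAL. No value of a single mouse was used, and the authors' own tests were not used, so the ratios were not set against the spread between mice, and each ratio of 2 means is a description of these 3 groups. A member was counted as higher or lower where 2 means differed at least 2-fold, among genes whose mean over the 3 groups was at least 1. The targeted gene, Scd2, had means of 2.46 in control, 6.47 in Scd2f/f TAL but 1.87 in Scd2f/f;CC TAL. Means summed over all genes to 658300 to 820600 per group, and the number of reads per library is unknown. Scaling the groups to the same sum would shift every log2 ratio by 0.32 for Scd2f/f TAL over control, by -0.17 for Scd2f/f;CC TAL over Scd2f/f TAL and by 0.15 for Scd2f/f;CC TAL over control.

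P450 enzymes of these families sit in the membrane of the endoplasmic reticulum and use haem and electrons from P450 oxidoreductase to insert an oxygen atom into drugs, carcinogens, steroids and fatty acids. In liver they are made mainly by hepatocytes, many of them around the central vein. The nuclear receptors CAR and PXR, encoded by Nr1i3 and Nr1i2, induce Cyp2b10, several Cyp2c genes and Cyp3a11 when they sense foreign compounds. Growth hormone, whose pulses differ between the sexes, sets other members apart in male and female mice through STAT5B. The genes lie in clusters of close copies, so that some transcripts and promoters are nearly the same.

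The members lay on 6 chromosomes of the mm10 assembly, with 13 genes on chromosome 19 (all Cyp2c), 10 on chromosome 7 (Cyp2a, Cyp2b, Cyp2f2, Cyp2g1 and Cyp2r1), 8 on chromosome 15 (Cyp2d), 8 on chromosome 5 (Cyp3a), 3 on chromosome 4 (Cyp2j) and 1 on chromosome 3 (Cyp2u1). The authors divided reads that match several genes by an expectation-maximization method, and near-identical copies are therefore uncertain one by one. Of the 43 members, 34 had at least 1 stretch of 75 bases in their longest coding transcript that also occurred in another gene, 20 shared over 10% of such stretches and 3 shared over 50%. These 3 were Cyp3a41a with 95.3%, Cyp3a41b with 90.9% and Cyp2c40 with 57.1%. Cyp2a4 shared 22.1% of its stretches, Cyp2b9 5.16%, Cyp2c29 0.527% and Cyp2c70 none.

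The promoters of the pairs Cyp2a4 and Cyp2a5, and Cyp2b9 and Cyp2b13, are shown first because Cyp2a4 and Cyp2b9 had the widest ratios of all members below and each pair is almost the same in sequence. RefSeq promoters on GRCm38.p6 were matched to 36 of the 43 members, and the 250 bases before the start of transcription are used. No entry was found for Cyp2c44, Cyp2c54, Cyp2d12, Cyp2d22, Cyp2d37-ps, Cyp2g1 and Cyp2u1. Capitals mark bases that differ from the partner or have no aligned base in it. The windows are chr7:26306942-26307191 for Cyp2a4, chr7:26835089-26835338 for Cyp2a5, chr7:26173159-26173408 for Cyp2b9 and chr7:26061245-26061494 for Cyp2b13, all on the plus strand.
Cyp2a4: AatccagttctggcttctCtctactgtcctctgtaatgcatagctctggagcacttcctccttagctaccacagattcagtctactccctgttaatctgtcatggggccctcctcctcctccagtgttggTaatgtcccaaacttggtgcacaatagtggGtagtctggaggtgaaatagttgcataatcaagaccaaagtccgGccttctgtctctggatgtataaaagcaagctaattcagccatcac
Cyp2a5: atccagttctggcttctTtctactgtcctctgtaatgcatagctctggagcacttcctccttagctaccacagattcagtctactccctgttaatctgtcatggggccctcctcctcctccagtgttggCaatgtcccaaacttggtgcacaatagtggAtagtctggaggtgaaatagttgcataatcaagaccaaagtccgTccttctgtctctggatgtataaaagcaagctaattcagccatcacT
Cyp2b9: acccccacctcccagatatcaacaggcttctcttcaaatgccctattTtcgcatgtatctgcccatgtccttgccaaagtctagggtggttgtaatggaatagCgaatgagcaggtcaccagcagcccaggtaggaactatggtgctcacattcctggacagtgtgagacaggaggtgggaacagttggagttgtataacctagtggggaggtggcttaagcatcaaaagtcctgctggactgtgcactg
Cyp2b13: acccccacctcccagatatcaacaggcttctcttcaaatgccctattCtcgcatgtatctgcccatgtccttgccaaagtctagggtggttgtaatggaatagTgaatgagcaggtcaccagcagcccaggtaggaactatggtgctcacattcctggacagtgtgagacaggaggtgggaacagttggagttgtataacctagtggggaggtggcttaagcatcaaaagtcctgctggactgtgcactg
Cyp2a4 and Cyp2a5 matched at 245 of 251 aligned positions (97.6%), and Cyp2b9 and Cyp2b13 at 248 of 250 (99.2%). By contrast Cyp2b10, the CAR-inducible gene of the same cluster, matched Cyp2b9 at 68.8% of aligned positions, and Cyp2c38 matched Cyp2c39 at 71.0%.

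Of the 43 members, 33 had a mean of at least 1, and 29 of these had a mean of at least 1 in every group. The other 4, Cyp2a22, Cyp2a4, Cyp2b10 and Cyp2b9, entered through the groups in which they were high, so a wide ratio among them was in part set by the filter. In Scd2f/f TAL over control, 5 of 33 members were at least 2-fold higher and 4 were at least 2-fold lower, beside 6.4% of 11784 genes that were as much higher and 2.89% that were as much lower. Scaled to the same sum, 2 were lower and 5 were higher. In Scd2f/f;CC TAL over Scd2f/f TAL, 3 were higher and 1 was lower, beside 0.645% and 1.54% of all genes. In Scd2f/f;CC TAL over control, 5 were higher and 2 were lower, beside 4.51% and 2.55%, and 6 and 1 with the same sum, where Cyp2c37 is added to the higher ones and Cyp3a11 is not among the lower ones. Among the 29 members with a mean of at least 1 in every group, the counts were 2 higher and 3 lower, 1 higher and 0 lower, and 2 higher and 1 lower in the same order of comparisons. The comparisons share groups, so their counts are not independent of each other. Against control, wide ratios were at least as common among the other 24 protein-coding Cyp genes with a mean of at least 1. For Scd2f/f TAL, 5 of these (20.83%) passed the 2-fold limit upward and 4 (16.67%) downward, beside 15.15% and 12.12% of the members. For Scd2f/f;CC TAL the shares were 20.83% and 8.33%, beside 15.15% and 6.06%. Between both TAL groups, 0 of the 24 passed this limit, whereas 3 members did upward and 1 downward.

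The median log2 ratio of the 33 members was -0.05 in Scd2f/f TAL over control, beside 0.03 for all genes, with 16 members higher and 17 lower. The sign of this median depended on the setting, since it was 0.27 with the same sum, 0.03 with a mean of at least 10 and 0.04 over subfamily sums. In Scd2f/f;CC TAL over Scd2f/f TAL the median was 0.29, beside 0.0059 for all genes, and 24 members were higher and 9 lower, whereas 5957 genes were higher and 5698 were lower of the 11784. This median was 0.12 with the same sum and also 0.12 over subfamily sums. The count of 24 is without scaling to the same sum, whose shift of -0.17 is larger than some of the members' ratios, such as that of Cyp2f2 (0.03). In Scd2f/f;CC TAL over control it was 0.24, beside 0.04. Of the 33 members, 16 had their highest mean in Scd2f/f;CC TAL (48.5%, beside 29.3% of all genes). Control held the highest mean of 11 members (33.3%, beside 37.7% of all genes). Scd2f/f TAL held that of 6 members (18.2%, beside 3889 of the 11784 genes). The other 24 protein-coding Cyp genes with a mean of at least 1 had medians of 0.18, 0.16 and 0.17 in the same order, with 0 genes at least 2-fold apart between both TAL groups.

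**Figure D1:**
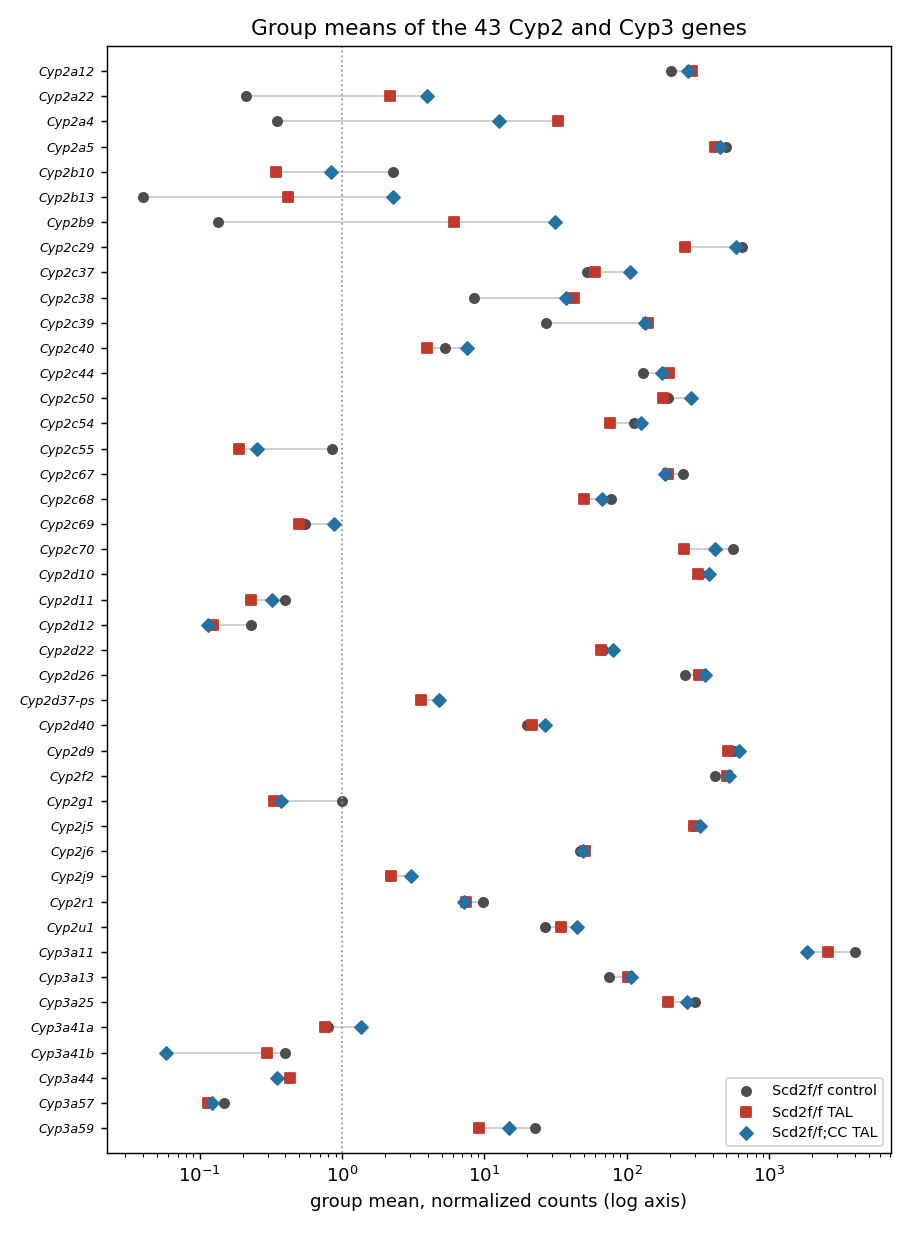
Group means of the 43 members (normalized counts, log axis) in Scd2f/f control (circles), Scd2f/f TAL (squares) and Scd2f/f;CC TAL (diamonds), 1 authors' mean per group and gene with no error bar, since single mice have no value here; the dotted line is at 1. Cyp3a11 stands at the right with 3990, 2580 and 1830, and the widest gaps belong to Cyp2b9, Cyp2a4, Cyp2b13 and Cyp2a22, whose control means are under 1.

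The Cyp2a genes split into abundant members that stayed within 1.5-fold and scarce ones that were far apart. Cyp2a5, the coumarin 7-hydroxylase of mouse, had means of 495, 414 and 447. Cyp2a12, a steroid hydroxylase, had 203, 286 and 268. Cyp2a4, a testosterone 15-alpha-hydroxylase that is higher in female than in male liver, had 0.348, 32.6 and 12.6. Its mean was thus highest in Scd2f/f TAL and lowest in control, with a log2 ratio of 6.55 between these groups. It was 2.59-fold lower in Scd2f/f;CC TAL than in Scd2f/f TAL (log2 ratio -1.37). Cyp2a4 passed the filter only through the TAL groups, so its ratio over control was in part set by the filter. The control mean is near the low end of the table, and with 1 added to both means Cyp2a4 was 24.9-fold higher in Scd2f/f TAL than in control. Cyp2a5, with which Cyp2a4 shares most of its promoter letters and 21.0% of its 75-base stretches, was highest in control, where Cyp2a4 was lowest. The sum of both was 495.3, 446.6 and 459.6. Cyp2a22 had 0.212, 2.18 and 3.98, so its mean was under 1 in control and highest in Scd2f/f;CC TAL.

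The summed means of the 3 Cyp2b genes were 2.45, 6.85 and 34.2, but these genes did not share an order of groups. Cyp2b9, a female-predominant steroid hydroxylase, had 0.135, 6.08 and 31.1. It was 5.12-fold higher in Scd2f/f;CC TAL than in Scd2f/f TAL, and its log2 ratio of Scd2f/f;CC TAL over control was 7.85. With 1 added to both means these were 4.53-fold and 28.3-fold. Cyp2b9 passed the filter only through the TAL groups, so its ratio over control was in part set by the filter. Cyp2b13, its neighbour with a near-identical promoter, had 0.04, 0.419 and 2.28, in the same order of groups, but its mean over the groups was under 1 and its control mean was the lowest value that the table holds for that group, at which 118 genes stood. Cyp2b10, the textbook target of CAR, was instead highest in control, with 2.27, 0.346 and 0.84. Its log2 ratios were -2.71 in Scd2f/f TAL over control and 1.28 in Scd2f/f;CC TAL over Scd2f/f TAL, and the latter was 0.45 with 1 added to both means, which is under the 2-fold limit.

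The 13 Cyp2c genes, which code for epoxygenases, hydroxylases of retinoids and steroids and 1 bile acid hydroxylase, summed to 2064, 1449 and 2115. The sum was lowest in Scd2f/f TAL, and those of control and Scd2f/f;CC TAL differed by a factor of 1.02. Cyp2c29, an arachidonic acid epoxygenase and a target of CAR, had 648, 255 and 581. Its log2 ratio was -1.35 in Scd2f/f TAL over control and 1.19 in Scd2f/f;CC TAL over Scd2f/f TAL, and it is the member with every mean above 1 that was at least 2-fold apart between both TAL groups. Cyp2c70, which makes muricholic acids from chenodeoxycholic acid in mice, had 560, 252 and 415, with log2 ratios of -1.15 and 0.72. With the groups scaled to the same sum, Cyp2c70 was under the 2-fold limit in Scd2f/f TAL over control (log2 ratio -0.83).

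Cyp2c38 and Cyp2c39, neighbours on chromosome 19, were high in both TAL groups alike. Cyp2c38 had 8.38, 42.8 and 37.6, and Cyp2c39, a retinoic acid hydroxylase, had 27.2, 140 and 134. They were 5.11-fold and 5.15-fold higher in Scd2f/f TAL than in control, whereas their log2 ratios of Scd2f/f;CC TAL over Scd2f/f TAL were -0.19 and -0.06. Few of their 75-base stretches were shared with other genes, 1.86% for Cyp2c38 and 2.98% for Cyp2c39.

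Cyp2c37, Cyp2c50 and Cyp2c54 form a group of close copies that are CAR targets. Cyp2c37 had 52.6, 59.8 and 105, Cyp2c50 had 194, 178 and 280, and Cyp2c54 had 112, 76.6 and 126. All 3 were highest in Scd2f/f;CC TAL, and their sum was 358.6, 314.4 and 511.0, which is 1.63-fold higher in Scd2f/f;CC TAL than in Scd2f/f TAL. Among the near-identical Cyp2c40, Cyp2c67, Cyp2c68 and Cyp2c69, Cyp2c67 had 247, 193 and 184, Cyp2c68 had 77.8, 49.6 and 67.3, and Cyp2c40 had 5.32, 3.94 and 7.51. Their sum was 330.7, 247.0 and 259.7, and single values within this group are uncertain because reads can be assigned to a neighbouring copy. Cyp2c44, an epoxygenase that GENCODE M21 names Cyp2c23, had 130, 198 and 176.

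**Figure D2:**
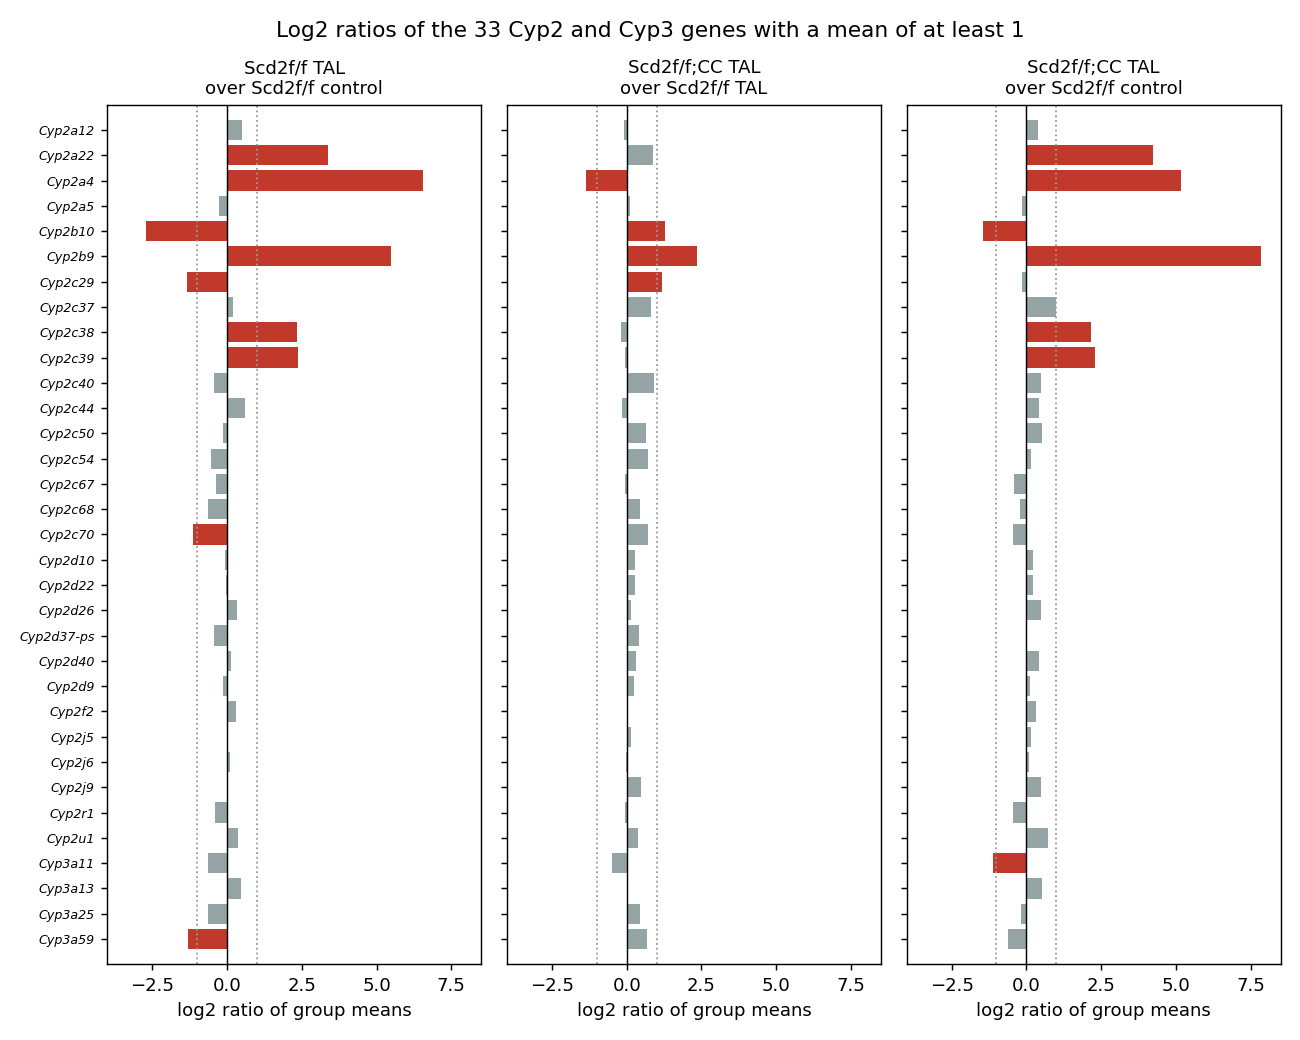
Log2 ratios of group means (horizontal axes) for the 33 members with a mean of at least 1, in Scd2f/f TAL over Scd2f/f control, Scd2f/f;CC TAL over Scd2f/f TAL and Scd2f/f;CC TAL over Scd2f/f control; dotted lines mark a 2-fold difference and red bars reach it. In the middle panel most bars are short and point to the right, 24 of 33, with Cyp2b9 as the longest at 2.35 and Cyp2a4 as the one red bar to the left.

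The Cyp2d genes, relatives of the human debrisoquine hydroxylase gene, were within 1.5-fold in all 3 comparisons for the 6 with a mean of at least 1. Cyp2d9, a male-predominant testosterone 16-alpha-hydroxylase, had 567, 515 and 614. Cyp2d10 had 327, 315 and 379, and Cyp2d26 had 256, 323 and 356. Although small, the ratios of Scd2f/f;CC TAL over Scd2f/f TAL lay on 1 side, with all 6 higher, beside 5957 of 11784 genes. Their log2 ratios ran from 0.14 for Cyp2d26 to 0.41 for Cyp2d37-ps. With the groups scaled to the same sum, a shift of -0.17, Cyp2d26 would not be higher. Several of these genes are neighbouring copies that share 75-base stretches with other genes, such as Cyp2d10 (26.7%) and Cyp2d9 (16.7%). They do not count as separate cases. Cyp2d22 had 67.8, 65.5 and 79.9, Cyp2d40 had 19.8, 21.5 and 26.6, and Cyp2d37-ps, which the file lists as protein-coding in spite of a pseudogene's symbol, had 4.83, 3.6 and 4.77. The subfamily summed to 1243, 1244 and 1461.

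Cyp3a11, the main drug-oxidizing Cyp3a gene of mouse liver and a target of PXR, was the most abundant member in every group, also per kb of transcript, at 1702, 1101 and 780.7 normalized counts per kb. The next gene per kb in control was Cyp2c29 with 363.4, and in Scd2f/f;CC TAL Cyp2d9 with 358.6. The means of Cyp3a11 were 3990, 2580 and 1830, so that it was lower in Scd2f/f TAL than in control (log2 ratio -0.63) and lower again in Scd2f/f;CC TAL than in Scd2f/f TAL (log2 ratio -0.50). It was 2.18-fold lower in Scd2f/f;CC TAL than in control, and its log2 ratio there was -0.97 with the same sum, just under the 2-fold limit. It was 1 of 9 members that were lower in Scd2f/f;CC TAL than in Scd2f/f TAL. Cyp3a25 had 303, 195 and 266, and its near copy Cyp3a59 had 22.6, 9.13 and 14.8, both lowest in Scd2f/f TAL. Cyp3a13 had 74.5, 102 and 106.

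Because Cyp3a11 is so abundant, it set much of the summed level of the members. Cyp3a11 made up 43.4% of the members' summed means in control, 35.7% in Scd2f/f TAL, 24.4% in Scd2f/f;CC TAL, and 37.6%, 30.7% and 20.3% of their sum per kb. With it, the members summed to 9192, 7223 and 7508. Without it they summed to 5202, 4643 and 5678, so that control held the highest sum with Cyp3a11 and Scd2f/f;CC TAL held the highest without it. Cyp2e1, the ethanol-oxidizing P450 left out here, had 3460, 3990 and 4570.

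**Figure D3:**
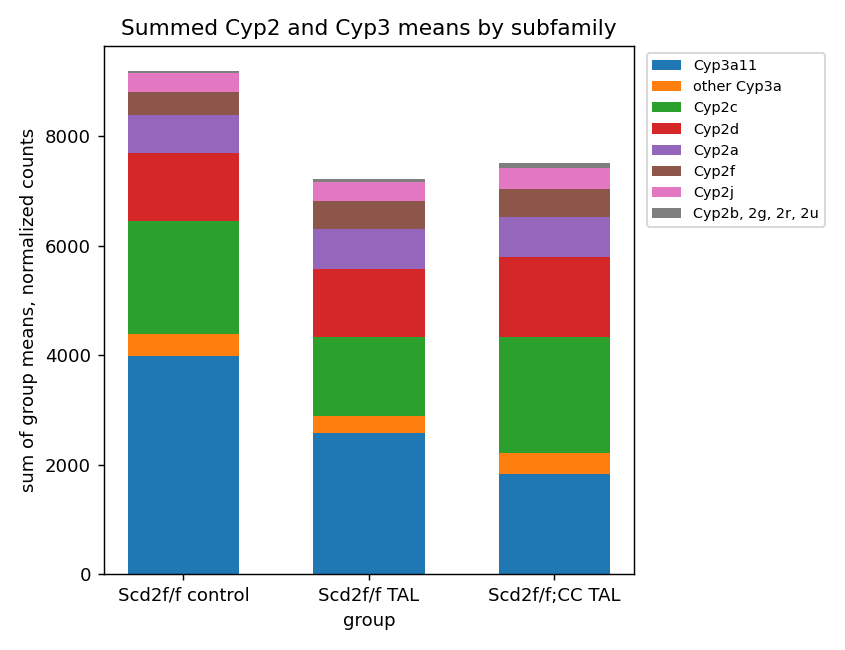
Sums of the group means over the members (normalized counts, axis from 0) in the 3 groups, stacked by subfamily with Cyp3a11 apart; there is no error bar. The Cyp3a11 block shrinks from 3990 to 2580 and 1830 from left to right, whereas the Cyp2c block is smallest in Scd2f/f TAL at 1449.

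Promoters of Cyp3a11 and Cyp2c70 are shown because both genes carry 2 of the searched motifs and differ in their order of groups. The windows are chr5:145879855-145880104 and chr19:40187287-40187536 on GRCm38.p6, both given on the minus strand in the direction of transcription. Capitals mark AGGTCA, the half-site of nuclear receptors, and CAAAGTCCA, a form of the HNF4A motif.
Cyp3a11: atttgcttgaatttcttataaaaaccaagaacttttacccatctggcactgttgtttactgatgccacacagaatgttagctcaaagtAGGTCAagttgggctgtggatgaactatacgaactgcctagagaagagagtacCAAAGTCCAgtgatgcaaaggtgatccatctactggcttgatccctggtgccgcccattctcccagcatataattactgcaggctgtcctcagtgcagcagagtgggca
Cyp2c70: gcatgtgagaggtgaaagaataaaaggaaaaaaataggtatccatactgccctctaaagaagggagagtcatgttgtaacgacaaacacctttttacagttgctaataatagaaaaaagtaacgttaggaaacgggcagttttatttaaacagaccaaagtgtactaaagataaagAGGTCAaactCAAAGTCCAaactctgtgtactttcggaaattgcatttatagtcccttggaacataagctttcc
On both strands of the 250 bases, AGGTCA was found in 12 of 36 members (33.3%), or 13 of 38 member promoters (34.2%), and in 14.02% of 32851 promoters. Cyp2c39 is among them only through a window at chr19:39347096-39347345, and its window nearest the deposited start had no match. Cyp3a25 counts 2 times among the 13, through 2 windows that overlap almost fully. The Cyp2c29 window, chr19:39286835-39287084, lies inside the deposited span of that gene. The start used for Cyp3a11 lies 111 bases inside the deposited span of Cyp3a11. Part of its printed window, with the marked CAAAGTCCA, therefore lies within that span. CAAAGTCCA was found in 8 of 36 members (22.2%), or 8 of 38 member promoters (21.1%), and in 0.38% of all promoters. The 8 members were Cyp2c40, Cyp2c67, Cyp2c68, Cyp2c69, Cyp2c70, Cyp3a11, Cyp3a41a and Cyp3a41b. Several of these 8, and several of the 12 with AGGTCA, are copies of each other and do not count as separate cases. TTCNNNGAA, the motif of STAT5, was in 0 of 36 members and in 7.02% of all promoters. In both printed windows the marked motifs do not overlap. A match here is a match of letters, and no match says only that these letters are not in this window.

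Of the remaining members with a mean of at least 1, Cyp2u1 alone reached a 1.5-fold difference between any 2 groups. Cyp2f2, which activates naphthalene in lung and is also made by periportal hepatocytes, had 415, 508 and 517. The epoxygenase Cyp2j5 had 291, 297 and 327, Cyp2j6 had 46.5, 50.4 and 49.5, and Cyp2j9 had 2.16, 2.22 and 3.07. Cyp2r1, a vitamin D 25-hydroxylase, had 9.77, 7.41 and 7.2. Cyp2u1, a long-chain fatty acid hydroxylase, had 26.6, 34.5 and 44.5, the highest in Scd2f/f;CC TAL at 1.67-fold its control mean. The 10 members with a mean under 1 were Cyp2b13, Cyp2c55, Cyp2c69, Cyp2d11, Cyp2d12, Cyp2g1, Cyp3a41a, Cyp3a41b, Cyp3a44 and Cyp3a57, with means from 0.04 to 0.996 in control, 0.114 to 0.76 in Scd2f/f TAL, then 0.0577 to 2.28 in Scd2f/f;CC TAL. Cyp3a41a and Cyp3a41b, which share nearly all their sequence, summed to 1.19, 1.05 and 1.42.

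Gene lists were counted without the filter on low values. Over all 16755 genes, the shares at least 2-fold higher and lower were 9.37% and 4.69% in Scd2f/f TAL over control, 1.82% and 4.07% in Scd2f/f;CC TAL over Scd2f/f TAL, then 6.41% and 4.64% in Scd2f/f;CC TAL over control. At a 1.5-fold limit they were 17.2% and 11.3%, 5.72% and 9.82%, then 14.9% and 10.9%.

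Grouped by regulation, the CAR- and PXR-inducible members were mostly lowest in Scd2f/f TAL. The list held Cyp2b10, Cyp2c29, Cyp2c37, Cyp2c50, Cyp2c54, Cyp2c55 and Cyp3a11. Of these 7, 6 were lower in Scd2f/f TAL than in control, beside 7676 of 16755 genes, with a median log2 ratio of -0.63. At least 2-fold lower were 3 (Cyp2b10, Cyp2c29 and Cyp2c55, the last with a mean under 1), beside 4.69% of all genes. In Scd2f/f;CC TAL over Scd2f/f TAL, 6 of 7 were higher, beside 8298 of 16755 genes, with a median of 0.72, and Cyp3a11 was lower. At least 2-fold higher were 2 and at least 1.5-fold higher were 5, beside 1.82% and 5.72% of all genes. The 2 were Cyp2c29 and Cyp2b10, and both TAL means of Cyp2b10 were under 1. The 5 also held the close copies Cyp2c37, Cyp2c50 and Cyp2c54, which do not count as separate cases. With the groups scaled to the same sum, Cyp2c50 and Cyp2c54 would be under 1.5-fold. Of the female-predominant members, 9 of 10 listed were in the table and Cyp3a16 was not found. In Scd2f/f TAL over control 4 of the 9 were at least 2-fold higher, beside 9.37% of all genes, namely Cyp2a4, Cyp2b9, Cyp2b13 and Cyp2c39, and 0 were as much lower. The control means of the first 3 were under 1, and that of Cyp2c39 was 27.2. In Scd2f/f;CC TAL over Scd2f/f TAL they divided, with 2 at least 2-fold higher (Cyp2b9 and Cyp2b13) and 2 lower (Cyp2a4 and the uncertain copy Cyp3a41b), and 5 of the 9 had a mean under 1. Of the 6 male-predominant genes, which are mostly not members, 1 was at least 2-fold higher and 1 lower in Scd2f/f TAL over control, and 2 were higher in Scd2f/f;CC TAL over Scd2f/f TAL. Hsd3b5, a steroid dehydrogenase of male liver, had 128, 29 and 85.8, and Elovl3, a fatty acid elongase, had 13.7, 34.3 and 73.2, so this list too did not lie on 1 side; both were named after their values were seen. Of the 7 arachidonic acid epoxygenases, 2 were at least 2-fold higher and 1 was lower in Scd2f/f TAL over control, and 1 was higher in Scd2f/f;CC TAL over Scd2f/f TAL. Cyp2s1 and Cyp2w1, listed with the members of a single role, were not found.

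Of 18 transcription factors and nuclear receptors that control these genes, 1 was at least 2-fold higher in Scd2f/f TAL than in control, Nr0b2, a corepressor of nuclear receptors, with 4.71, 10.4 and 14.7. None was 1.5-fold apart between both TAL groups. Nr1i3 had 49.6, 44.4 and 59.5, and Nr1i2 had 18.3, 19.2 and 20.8. Foxa3, a hepatocyte forkhead factor, had 40.6, 21.4 and 22.7, and Cebpb had 79.5, 66.2 and 49.9. Of 7 genes of the growth hormone axis, 1 was at least 2-fold lower in Scd2f/f TAL than in control and 1 was at least 2-fold higher in Scd2f/f;CC TAL than in Scd2f/f TAL. Both were Bcl6, a repressor that opposes STAT5, with 28.2, 10.9 and 24.6. Stat5b had 17.7, 30.6 and 34.6, and Stat5a had 5.77, 8.98 and 8.31, so both were lowest in control. Socs2, a target and inhibitor of growth hormone signalling, had 23.7, 12.6 and 13.3. These 4 were at least 1.5-fold apart in a comparison, and Ghr, Igf1 and Cux2 were not.

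Transcripts of genes for electron partners of P450 enzymes and for haem synthesis and breakdown were compared as well. Por, which encodes P450 oxidoreductase, had 196, 114 and 158, lowest in Scd2f/f TAL, and it was the 1 gene of 6 electron partners that was 1.5-fold apart in a comparison. Of 8 genes of haem synthesis, Alas1, the first and rate-limiting enzyme, had 287, 221 and 179, in the same order as Cyp3a11, and the other 7 lay within 1.5-fold in all 3 comparisons. Hmox1, which breaks haem down, had 4.25, 17.4 and 11.1.

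**Figure D4:**
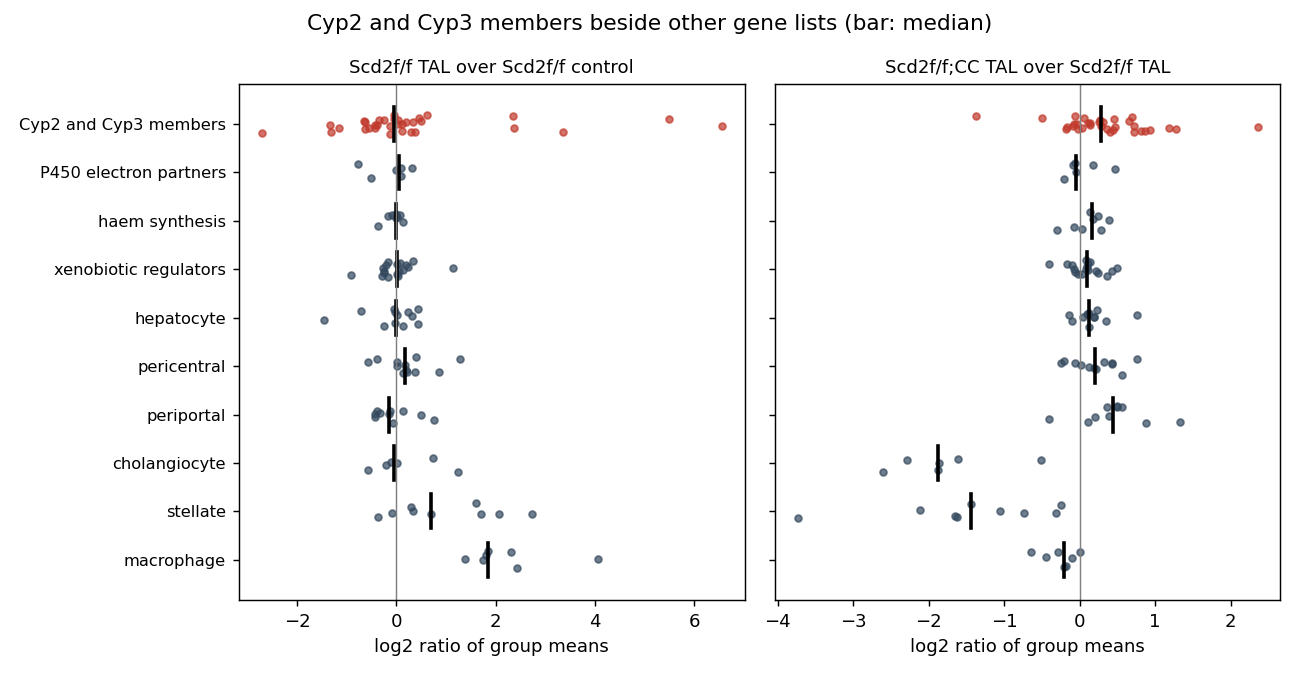
Log2 ratios of group means (horizontal axes) for the 33 members and the genes of 9 lists, in Scd2f/f TAL over Scd2f/f control and Scd2f/f;CC TAL over Scd2f/f TAL; each point is a gene and the black bars are medians. In the right panel the median of the members is 0.29 and that of the periportal list 0.44, while cholangiocyte and stellate genes lie at or below 0 with medians of -1.87 and -1.44.

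Markers of the cell types that liver tissue holds differed beside these values, and in such bulk samples fewer cells of a type and less RNA per cell cannot be told apart. The 12 hepatocyte markers were all measured and summed to 50020, 52340 and 56460. In Scd2f/f;CC TAL over Scd2f/f TAL their median log2 ratio was 0.12 and 10 of 12 were higher, beside 8298 of 16755 genes. Scaling to the same sum would shift each of these ratios by -0.17, more than the size of that median, so its sign depends on the scaling. The marker counts given here are without this scaling. In the same comparison 9 of 12 pericentral markers were higher (sums 5127, 6069 and 6896, Cyp2e1 among them) and 9 of 10 periportal markers were higher (sums 5646, 5525 and 6976). All 6 cholangiocyte markers (sums 59.0, 53.9 and 19.2) and all 9 stellate cell markers (sums 130.3, 223.1 and 127.8) were lower in that comparison. Beside them 8308 of 16755 genes were lower. Spp1, with 52.3, 45.1 and 14.8, made up most of the cholangiocyte sum. The 7 macrophage markers were all at least 2-fold higher in Scd2f/f TAL than in control (sums 80.3, 305.7 and 272.4), beside 9.37% of all genes. Endothelial markers summed to 91.5, 114.5 and 117.8, lymphocyte markers to 1.11, 4.29 and 2.56, and oncofetal genes to 3.48, 6.04 and 5.96, and no marker was at 0. A mean over the groups under 1 was found for all 6 lymphocyte and 3 of 6 cholangiocyte markers. The same held for 2 of 9 stellate cell markers and 2 of 4 oncofetal genes. The part of these cell types in the members' ratios was not tested.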

How the data were processed

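Total RNA was isolated with the PicoPure kit, polyadenylated RNA was selected with TruSeq v2 beads, and libraries were sequenced on a NextSeq by the authors. Per the labels' processing notes, STAR 2.6.1, Partek 6 and mm10 were used, and per the methods the authors assigned reads to Gencode genes by the Partek E/M method and normalized counts to the upper quartile. The values used are a deposited signal, the authors' least-squares mean of normalized counts per group with 3 significant digits. The other 8 columns used by no step here hold the authors' p-values, FDR, ratios and fold changes. The 9 samples have no column of their own, so no test, interval or paired fit was made. The depth is unknown. The labels' protocol text mentions DEN for controls too, whereas their treatment field says untreated.

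Log2 ratios of means were taken without a pseudocount, for genes with a mean over groups of at least 1, and called at 2-fold. All members with such a mean are named with their values, and genes of the regulator, partner and haem lists if 1.5-fold apart. Members and lists were chosen with earlier results of these data known. Shared stretches of 75 bases come from GENCODE M21 transcripts, in which 16171 symbols matched and 99.97% of these overlapped the deposited position. Promoters are from RefSeq. The 2-fold counting was checked on simulated means without noise, and no other step was tested in this way. Alternatives were pseudocounts, filters, a 1.5-fold limit, scaling and sums by subfamily. Python 3.11.15, NumPy 2.4.6, pandas 2.3.3 and Matplotlib 3.10.9 were used.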

Additional observations from a re-analysis of the deposited data

How the results depend on the processing

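No paired analysis was possible because only group means were used, and no replicate could be left out for the same reason. Of 78 alternatives of the counts and medians of members, 55 stayed within 1.5 times the count, or within 0.1 for a median, and 23 moved further; the cause was not tested. The median in Scd2f/f TAL over control (-0.05) was above 0 in 3 alternatives, at 0.27 with the same sum, 0.03 with a mean of at least 10 and 0.04 over subfamily sums. With 9 subfamily sums in place of genes, 1 was at least 2-fold higher and 0 lower in each comparison, and the median in Scd2f/f;CC TAL over Scd2f/f TAL was 0.12. With the groups scaled to the same sum, 2 members were lower in Scd2f/f TAL over control and 1 in Scd2f/f;CC TAL over control, and the medians were 0.27 in Scd2f/f TAL over control, 0.12 in Scd2f/f;CC TAL over Scd2f/f TAL, then 0.39 in Scd2f/f;CC TAL over control. At a 1.5-fold limit, 7 members were lower in Scd2f/f TAL over control and 10 were higher in Scd2f/f;CC TAL over Scd2f/f TAL. With no filter, 2 were lower in Scd2f/f;CC TAL over Scd2f/f TAL, while 6 were in Scd2f/f;CC TAL over control. In the latter comparison 1 was lower with a pseudocount of 1 or with a mean of at least 10. With a mean of at least 1 in every group, an alternative chosen after seeing the data, 2, 1 and 2 were higher and 3, 0 and 1 lower in the 3 comparisons in the order above. Of 20 single ratios of at least 2-fold, tried with 4 alternatives chosen after seeing the data (80 values), 0 reversed and 5 were under 2-fold: Cyp2b10 in Scd2f/f;CC TAL over Scd2f/f TAL (0.45) and over control (-0.83) with a pseudocount of 1, and with the same sum Cyp2c70 (-0.83) and Cyp3a59 (-0.99) in Scd2f/f TAL over control and Cyp3a11 (-0.97) in Scd2f/f;CC TAL over control. Since single mice have no values here and the authors' tests were not used, no ratio was set against the spread between mice, and the number of reads behind means under 1 is unknown.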

Other observations

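The pseudogene Cyp2c53-ps, which is no member, had means of 0.541, 0.0739 and 0.258 in control, Scd2f/f TAL, then Scd2f/f;CC TAL. The pseudogene Cyp2d41-ps had 1.48, 0.578 and 1.23. Both were lowest in Scd2f/f TAL.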
